A study of Mus musculus with 5 samples.

Results

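The 300 widest RNA polymerase II (Pol II) regions of mouse striatal neurons are described here, 300 of the 7799 unique regions in the authors' Pol II list. They were taken by sorting every region from wide to narrow, with ties broken by chromosome and start, and keeping the first 300, so the members were chosen by their measured Pol II width, which is therefore no finding. The chromatin came from striata of 8-week-old C57BL/6 mice, from nuclei sorted on NeuN, a nuclear antigen of neurons in general, and the labels call the cells medium spiny neurons, the GABAergic projection neurons of the striatum. There were 4 immunoprecipitations, for Pol II (Abcam AB5408), H3K4me3 (Abcam AB8580), H3K27ac (Abcam AB4729) and H3K27me3 (Millipore), and 1 input, with 1 library each. No treatment or genotype was compared, nuclei of many cells were pooled in each library, and the labels do not say how many mice gave them. With 1 library per antibody no test across samples is possible. The 95% intervals below count regions and cover counting error only, and the depth of the libraries is unknown.

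Pol II transcribes protein-coding genes, most microRNA precursors and many long noncoding RNAs. It gathers at the promoter, pauses shortly after the start and then moves through the gene body, so a promoter-anchored Pol II region can end near the start site or reach far into the gene. H3K4me3 marks promoters, H3K27ac marks active promoters and enhancers, and H3K27me3 is laid down by Polycomb repressive complex 2. In several cell types the widest H3K4me3 regions lie at genes that define the cell.

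The member regions spanned 9.0 to 193.2 kb, with a median of 11.4 kb against 4.9 kb for the 7499 other Pol II regions. They were 3.85% of the regions and held 10.6% of the listed base pairs. Only 3 exceeded 100 kb, 7 exceeded 40 kb and 30 exceeded 20 kb, while 93 were 10 kb or less. The last 3 inside the limit were at Ywhaz, Arc and the Rnf39 and Ppp1r11 pair, and the first 3 outside it were at Rad9 with Ppp1ca and Tbc1d10c, at Ganab with its neighbours, and at Gad2. All of these were 9.0 kb wide, a width shared by 6 members and 10 outside regions, so the limit cuts through a tie. The members named 444 of the 9163 gene symbols with Pol II. Each region carries the authors' score over input, whose scale is not given in the sources used here. Its median was 4.19 in the members and 2.75 in the others, and 97 members were also among the 300 highest-scoring regions. The 4 highest scores in the members were at Cpeb2 (9.24), Malat1 (8.52), Ngef (8.24) and Mir124a-1 (8.03). Cpeb2, a cytoplasmic polyadenylation factor gene, had a 9.6 kb region close to the limit, and Ngef a 43.7 kb region, so the highest scores were not all at the widest regions.

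Promoter sequences of member genes are shown for their differing composition. RefSeq promoters of build GRCm38.p6, from 250 bases before to 50 bases after each start, were matched by symbol for 332 of the 444 member genes. The files use build mm9, so the promoter positions below cannot be set against the region positions given later, and a printed start is not shown to lie under the Pol II region. Genes with 1 start in the table are printed from the widest members and from the chromatin list, together with both starts of Pde10a, whose Pol II region is the widest. Capitals mark matches on either strand to 6 motifs: TATAAA (the TATA box), GGGCGG (the GC box), CCAAT (the CCAAT box), TGACGTCA (the cyclic AMP response element), GCGTGGGCG (the EGR element) and the MEF2 element. Matches can overlap, as CCAAT and the MEF2 element do in Baiap2.
Pde10a, first start (chr17:8801495-8801794, plus strand): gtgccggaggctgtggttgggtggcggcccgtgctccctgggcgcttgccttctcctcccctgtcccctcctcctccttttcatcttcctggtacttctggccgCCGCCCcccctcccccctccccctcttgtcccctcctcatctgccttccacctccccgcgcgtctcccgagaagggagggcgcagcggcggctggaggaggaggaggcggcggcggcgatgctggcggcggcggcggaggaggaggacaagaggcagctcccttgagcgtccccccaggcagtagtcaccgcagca
Pde10a, second start (chr17:8849735-8850034, plus strand): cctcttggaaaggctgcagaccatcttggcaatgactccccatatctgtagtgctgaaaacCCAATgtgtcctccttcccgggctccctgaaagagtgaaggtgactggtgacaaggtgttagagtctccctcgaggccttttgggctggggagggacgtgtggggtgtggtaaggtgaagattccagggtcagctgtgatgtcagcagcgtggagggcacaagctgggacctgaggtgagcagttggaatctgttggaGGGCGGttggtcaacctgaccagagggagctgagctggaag
Adcy5 (chr16:35154614-35154913, plus strand): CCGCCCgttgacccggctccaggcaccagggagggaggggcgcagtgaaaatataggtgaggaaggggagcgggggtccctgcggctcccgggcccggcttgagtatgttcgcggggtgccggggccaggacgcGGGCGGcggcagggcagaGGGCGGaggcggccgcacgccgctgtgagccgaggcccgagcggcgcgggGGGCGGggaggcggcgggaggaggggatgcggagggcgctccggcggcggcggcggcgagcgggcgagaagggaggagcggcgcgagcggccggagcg
Baiap2 (chr11:119942842-119943141, plus strand): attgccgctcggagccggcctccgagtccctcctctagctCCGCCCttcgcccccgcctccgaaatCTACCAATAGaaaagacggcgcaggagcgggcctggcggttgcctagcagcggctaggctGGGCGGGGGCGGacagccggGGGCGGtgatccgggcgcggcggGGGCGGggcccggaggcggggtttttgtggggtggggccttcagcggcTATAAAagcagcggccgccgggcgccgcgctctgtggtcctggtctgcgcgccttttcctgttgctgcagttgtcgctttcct
Bcl11b (chr12:108003365-108003664, minus strand): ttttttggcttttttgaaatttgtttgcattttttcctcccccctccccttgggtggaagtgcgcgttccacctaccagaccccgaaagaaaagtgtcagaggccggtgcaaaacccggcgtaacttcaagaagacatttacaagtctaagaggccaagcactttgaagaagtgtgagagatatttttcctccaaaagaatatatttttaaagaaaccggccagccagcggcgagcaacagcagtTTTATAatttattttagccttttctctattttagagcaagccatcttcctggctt
Cbx6 (chr15:79834284-79834583, minus strand): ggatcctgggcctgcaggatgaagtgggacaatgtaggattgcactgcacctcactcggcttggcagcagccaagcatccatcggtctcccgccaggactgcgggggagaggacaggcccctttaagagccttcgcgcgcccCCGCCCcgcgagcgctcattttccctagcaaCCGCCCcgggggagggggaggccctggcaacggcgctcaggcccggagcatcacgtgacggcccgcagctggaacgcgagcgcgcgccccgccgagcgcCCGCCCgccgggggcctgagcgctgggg
The promoters of these genes did not share 1 base composition. Adcy5, the main striatal adenylyl cyclase gene, had 79.0% GC, 44 CpG dinucleotides and 4 GC boxes. Bcl11b, the gene of the striatal transcription factor Ctip2, had 43.0% GC, 9 CpG dinucleotides, a TATAAA match and no GC box. The starts of Pde10a also differed from each other, with 71.3% GC and 23 CpG dinucleotides at the first and 56.7% GC and 5 CpG dinucleotides at the second. Baiap2 held 5 GC boxes and a TATAAA match within the same 300 bases.

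Over all members with a promoter sequence, the promoters were of the CpG-rich kind but slightly less so than at other Pol II genes. The median ratio of observed to expected CpG was 0.767 (95% interval 0.722 to 0.804) in the 332 member genes and 0.821 (0.815 to 0.827) in the 6939 other Pol II genes. In the 19754 genes without a Pol II region it was 0.265. The median GC content was 62.0% (60.3 to 63.0%) in the members and 62.7% in the other Pol II genes, within that interval. TATAAA was present in 34 member promoters (10.2%), against 6.04% of all Pol II genes and 14.2% of all promoters of the table. GC boxes were present in 207 member promoters (62.3%), against 68.8% of Pol II genes and 35.9% of all promoters. CCAAT was found in 36.1% of member promoters, 38.3% of Pol II genes and 37.9% of all promoters, and the MEF2 element in 4.22%, 3.15% and 3.7%. TGACGTCA was found in 2.71%, 3.74% and 1.88%, and GCGTGGGCG in 0.904%, 1.25% and 0.625%, each of them in fewer than 10 member promoters. Among the 4 motifs found in at least 10 member promoters, TATAAA was the one with the largest relative difference from other Pol II genes (5.84%).

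MicroRNA genes formed a visible group among the members. Of the 74 microRNA genes with a Pol II region, 14 lay in 12 member regions (18.9%), against 4.85% of all genes with Pol II. MicroRNAs repress target messenger RNAs chiefly through their seed, bases 2 to 8, shown here in capitals for 1 arm of each matched precursor. RefSeq mature sequences of the same build were matched for 11 of the 14 genes, and Mir124a-1, Mir124a-2 and Mir124a-3 are named only.
miR-9-5p: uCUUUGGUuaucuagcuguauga
miR-132-3p: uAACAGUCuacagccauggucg
miR-212-3p: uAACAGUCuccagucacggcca
miR-191-5p: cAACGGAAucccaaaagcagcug
miR-425-5p: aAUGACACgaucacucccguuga
miR-219a-5p: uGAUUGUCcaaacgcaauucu
miR-139-5p: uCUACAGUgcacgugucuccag
miR-129-5p: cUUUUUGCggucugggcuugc
miR-671-5p: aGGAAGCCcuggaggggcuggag
miR-125b-5p: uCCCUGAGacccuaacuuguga
The Mir9-2 and Mir9-3 genes give the same mature miR-9-5p from regions on different chromosomes. Mir9-2, listed with the noncoding transcript C130071C03Rik, had 29.0 kb of Pol II, 34.9 kb of H3K4me3 and 28.2 kb of H3K27ac, and Mir9-3 had 20.7, 33.2 and 14.3 kb. Mir132 and Mir212, whose 3p arms share the seed AACAGUC, lay in 1 Pol II region of 11 kb with Hic1 and Ovca2. Mir191 and Mir425 lay in another of 13.7 kb with Impdh2, Ndufaf3 and Dalrd3. Each of these microRNA pairs is therefore 1 measurement. All 3 genes of miR-124, the neuronal microRNA, were members, with Pol II widths of 20.2 kb at Mir124a-2, 14.0 kb at Mir124a-1 and 11.3 kb at Mir124a-3. The region listed for Mir139 lies 9.6 kb downstream of a Pde2a region on the same strand. Whether its Pol II belongs to Pde2a was not tested. The Mir139 region combined 12.1 kb of Pol II and 22.0 kb of H3K4me3 with an H3K27ac region of 2.9 kb. Mir219-1 (12.1 kb), Mir129-2 (10.4 kb), Mir671 (9.7 kb) and Mir125b-1 (9.1 kb) completed the group. Mir219-1 shares its region with Slc39a7, Ring1, Rxrb and H2-Ke6, Mir671 with Chpf2 and Mir125b-1 with 2610203C20Rik. In shared regions, Pol II of the microRNA gene and of the other genes cannot be told apart. Of the noncoding genes in the list, microRNAs included, 9 of 16 with Pol II were members (56.2%). The others among them were Malat1 (15.1 kb), Gas5, host of small nucleolar RNAs (10.4 kb), Meg3 (9.8 kb) and Dlx6os1, which shares the Dlx5 and Dlx6 region.

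The widest regions lay at genes of striatal signalling and identity. At Pde10a, which encodes the striatal phosphodiesterase of cyclic AMP and cyclic GMP, Pol II covered 193.2 kb of chromosome 17 (mm9, 8991301 to 9184500). H3K4me3 covered the first 109.7 kb of it and H3K27ac only 27.6 kb, so Pol II ran 83.5 kb beyond H3K4me3 and 166.7 kb beyond H3K27ac in the direction of transcription. Phactr1, a regulator of protein phosphatase 1 and actin, had 154.5 kb of Pol II on chromosome 13 (mm9, 42773801 to 42928300). Its H3K4me3 and H3K27ac lay in the first part of the region, and Pol II went on for 118.0 kb past the one and 120.8 kb past the other. Adcy5 had 105.2 kb on chromosome 16 (mm9, 35152401 to 35257600), with H3K4me3 (44.5 kb) and H3K27ac (43.7 kb) of nearly the same extent, and Pol II ran 61.7 and 62.0 kb past them.

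**Figure D1:**
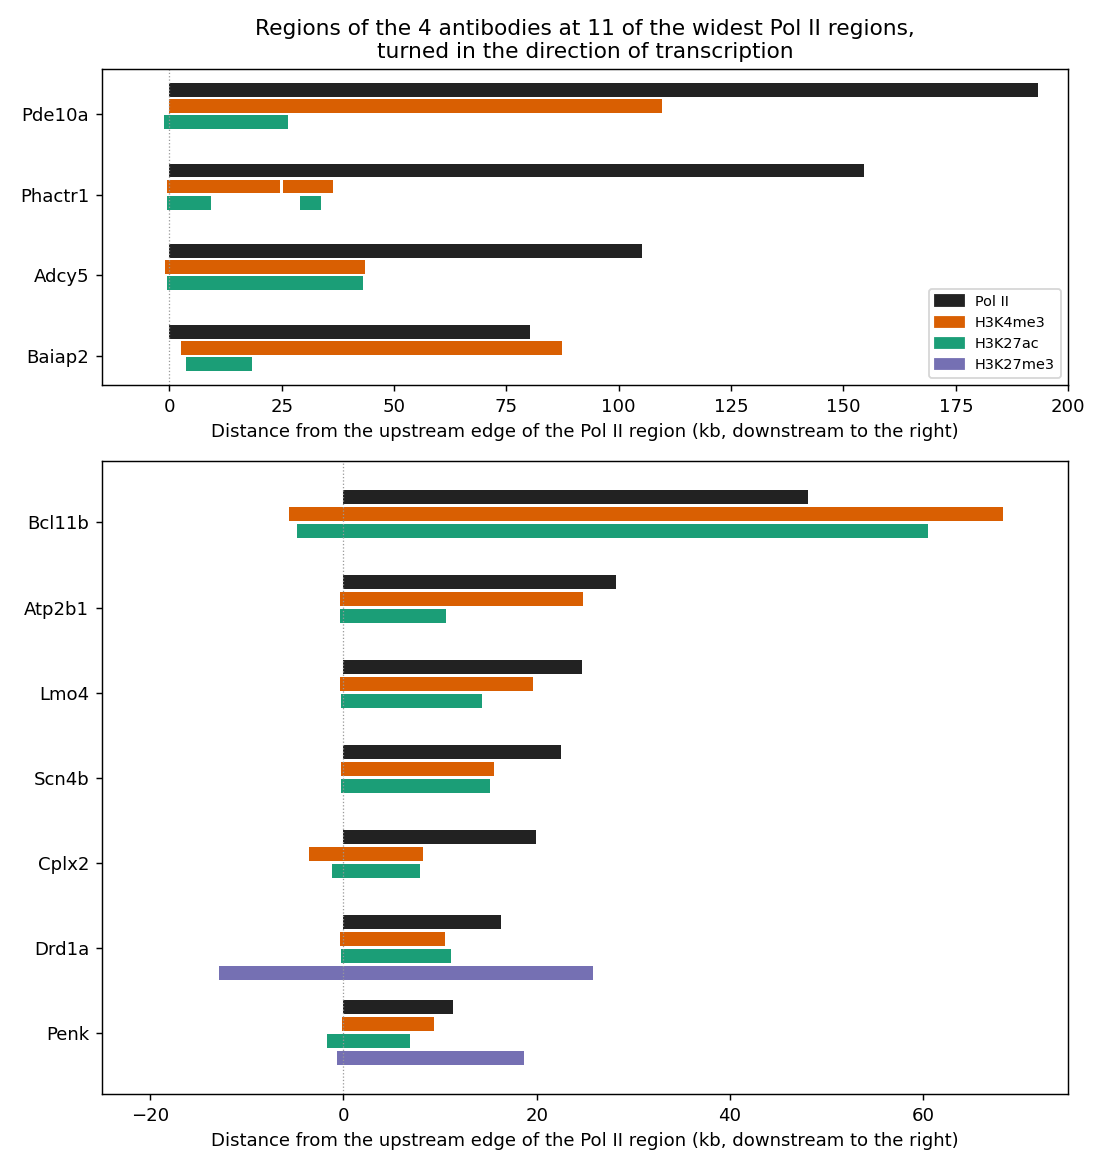
Regions of Pol II, H3K4me3, H3K27ac and H3K27me3 at 11 members, with the distance in kb from the upstream edge of the Pol II region on the horizontal axis and transcription running to the right. At Pde10a, Phactr1 and Adcy5 Pol II runs more than 50 kb past both marks, at Bcl11b the marks enclose Pol II, and at Drd1a and Penk H3K27me3 encloses it.

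The next regions showed that the marks need not stop together. Baiap2, a postsynaptic scaffold gene, had 80.3 kb of Pol II on chromosome 11 (mm9, 119791801 to 119872100). H3K4me3 (84.8 kb) covered 96.9% of it and ended 7.0 kb further downstream, while H3K27ac (14.5 kb) covered 18.1%. Bcl11b was the reverse of Adcy5: its 48.1 kb of Pol II on chromosome 12 (mm9, 109196701 to 109244800) lay wholly inside 73.9 kb of H3K4me3 and 65.3 kb of H3K27ac. Ngef, which encodes a guanine nucleotide exchange factor of small GTPases, had 43.7 kb of Pol II with 34.5 kb of H3K4me3 and 11 kb of H3K27ac. Its region also reaches 3110079O15Rik on the other strand. The region of Pde1b, the calmodulin-dependent phosphodiesterase, and Ppp1r1a, an inhibitor of protein phosphatase 1, was 41.2 kb wide. Meis2, a homeodomain factor gene, had widths within a narrow range, 37.7 kb of Pol II, 38.4 kb of H3K4me3 and 33.2 kb of H3K27ac.

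Regions ranked from 9 to 20 ranged from 33.2 to 23.2 kb. Phactr1 came a second time with a 33.2 kb region further along the gene. The Dlx5 and Dlx6 locus (30.7 kb), homeobox genes of GABAergic neurons, had H3K4me3 and H3K27ac of like extent, 36.9 and 36.2 kb. H3K27ac was narrower at ion pump genes. Atp1b1, a subunit of the sodium pump, and Atp2b1, a plasma membrane calcium pump, had 29.0 and 28.2 kb of Pol II with H3K4me3 of 29.2 and 25.2 kb but H3K27ac of 11.2 and 11 kb. Calm2, a calmodulin gene, had 23.2 kb of Pol II and 6.9 kb of H3K27ac, and Agap2, an Arf GTPase-activating protein gene, had 24.3 and 9.1 kb. Others were Dbn1 (drebrin) with Prr7 at 28.1 kb, Brms1 with Rin1 and B3gnt1 at 25.4 kb, Lmo4, a LIM-domain transcriptional regulator, at 24.7 kb, and Rap1gap, a regulator of the small GTPase Rap1, at 23.6 kb.

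**Figure D2:**
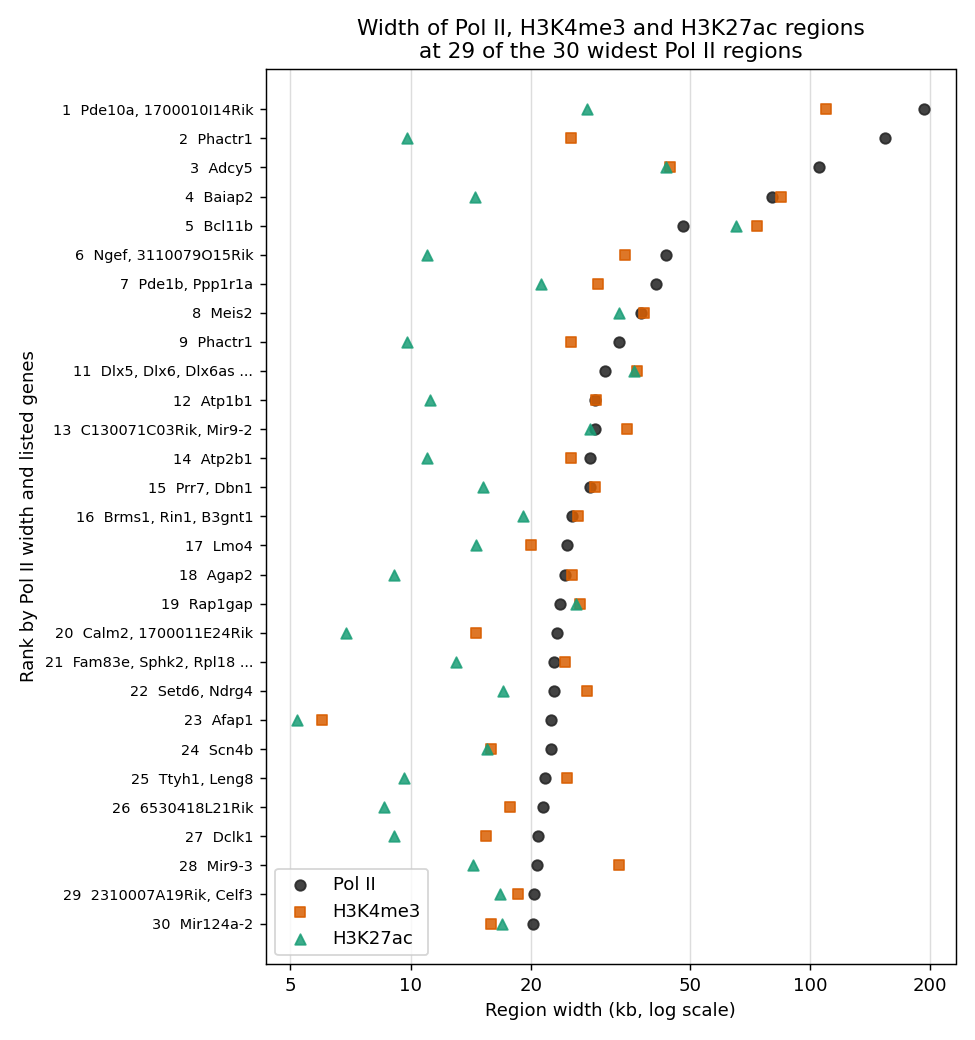
Width in kb on a log scale of the Pol II region and of the widest H3K4me3 and H3K27ac region listed for the same genes, for 29 of the 30 widest Pol II regions from top to bottom, 1 library per antibody. H3K27ac is narrower than Pol II at most of them, while H3K4me3 lies on both sides of Pol II.

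H3K4me3 and H3K27ac were also wider at the members than at other Pol II genes. The median H3K4me3 width at the member genes was 15.3 kb (14.5 to 16.0 kb, n = 297 members with a listed region) against 7.0 kb at the others, and that of H3K27ac was 10.2 kb (9.8 to 10.7 kb, n = 293) against 5.4 kb. H3K4me3 wider than 20 kb was listed at 84 members (28.3%), where 3.62% of all Pol II regions had it. H3K27ac wider than 20 kb was listed at 17 (5.80%, background 0.289%). Of the 300 widest regions of each list, 79 members (26.3%) shared bases with a widest H3K4me3 region, against 3.31% of all Pol II regions, and these were 75 of the 300 H3K4me3 regions (25%). With H3K27ac 160 members (53.3%, background 4.04%) shared bases, and 161 of the 300 widest H3K27ac regions (53.7%). With H3K27me3 there were 2 members (0.667%), near the background of 0.744%.

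The order of widths was shared in part between the antibodies. Across members, Spearman's rank correlation between Pol II width and mark width was 0.385 for H3K4me3 (n = 297) and 0.413 for H3K27ac (n = 293), and between the 2 marks it was 0.577. Over all Pol II regions it was 0.454 for H3K4me3 (n = 7773) and 0.643 for H3K27ac (n = 7602). The members span only the upper part of the Pol II widths, which the rule set. The values describe regions of single libraries, with genes as points, and all widths share the same nuclei and input. Pol II was wider than H3K4me3 at 90 of 297 members (30.3%, background 1.62%) and wider than H3K27ac at 185 of 293 (63.1%, background 8.31%), counts that partly follow from choosing wide Pol II. The median ratio of Pol II to H3K4me3 width was 0.852 (0.797 to 0.901), and to H3K27ac width 1.17 (1.07 to 1.26), against 0.698 and 0.891 in the other regions.

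**Figure D3:**
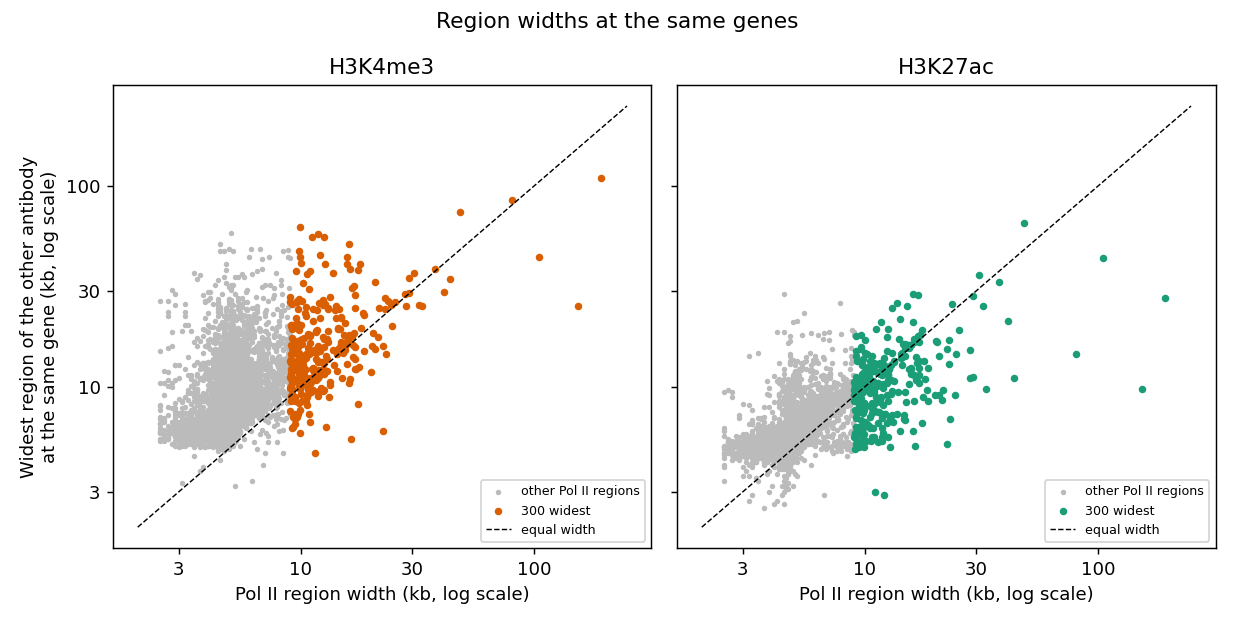
Pol II width against the width of the widest H3K4me3 (left) and H3K27ac (right) region at the same genes, in kb on log axes, with the 300 widest Pol II regions in colour, the others in grey and a dashed line of equal width. Most members lie above the line for H3K4me3 (205 of 297) and below it for H3K27ac (185 of 293).

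The extremes of the ratio were of different kinds. The largest ratios of Pol II to H3K4me3 width were at Phactr1 (6.13), Afap1 (3.75), BC003266 (2.98), Gas2l2 (2.45) and Adcy5 (2.36). At Gas2l2 the ratio rests on the 4.7 kb region listed for the gene, and by position its 11.5 kb of Pol II overlapped a wider H3K4me3 region of 16 kb. Afap1, which encodes an actin filament-associated protein, has a 22.5 kb Pol II region that overlaps no mark, and its own 6.0 kb H3K4me3 region lies 0.6 kb downstream. At BC003266 the 16.4 kb Pol II region extended 11.7 kb upstream of the marks. The smallest ratios were at Slc6a6, the taurine transporter gene (0.158, with 62.5 kb of H3K4me3 over 9.9 kb of Pol II), Pde2a, another cyclic nucleotide phosphodiesterase (0.201, second region), 9530059O14Rik (0.207), Atp5d, an ATP synthase subunit gene (0.207), and Smarcd1, a subunit of the BAF chromatin remodeller (0.223). At Slc6a6 H3K4me3 went on for 52.6 kb beyond the downstream end of Pol II, and H3K27ac was 8.3 kb wide. A wide H3K4me3 region was thus present at this gene with a Pol II region close to the limit of 9.0 kb.

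Nearly all members overlapped H3K4me3 and H3K27ac, as nearly all Pol II regions did. An H3K4me3 region shared bases with 295 of 300 members (98.3%, 96.2 to 99.5%, background 99.6%) and an H3K27ac region with 292 (97.3%, 94.8 to 98.8%, background 97.2%). Wholly under H3K4me3 were 179 members (59.7%, background 92.8%), and wholly under H3K27ac 73 (24.3%, background 67.2%). Wide regions are harder to enclose, so these lower shares follow in part from the rule and nothing is read from them. H3K27ac covered a median of 84.6% of a member (79.9 to 88.6%), whereas the median of the other Pol II regions was 100%.

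Pol II ran past H3K27ac, and past H3K4me3, at more members downstream than upstream. The side was not part of the rule, and it was read for regions whose listed genes lie on 1 strand. The ends were also compared by signed distance from the ends of the mark, negative where Pol II stops inside it. Regions enclosed by the mark are therefore counted too, and a larger downstream distance need not lie past the mark. Of 230 members with H3K27ac and genes on 1 strand, the downstream distance was the larger at 157 (68.3%, 61.8 to 74.2%). Over all 6435 Pol II regions of this kind it was 18.7%. For H3K4me3 it was 106 of 233 (45.5%, 39.0 to 52.1%), against 13.3%, and the upstream distance was the larger at 120 members (51.5%). Since wide Pol II was chosen, a longer reach on some side follows in part from the rule. At the upstream end the share past H3K27ac was near the background. Pol II started past H3K27ac upstream at 53 members (23.0%, background 27.5%), while it ended past H3K27ac downstream at 139 (60.4%, background 6.25%). For H3K4me3 the counts were 28 upstream (12%, background 5.63%) and 74 downstream (31.8%, background 1.8%). A stretch of 5 kb or more past H3K27ac was found downstream at 32 members (13.9%, background 0.497%) and upstream at 9 (3.91%, background 0.171%). Past H3K4me3 it was found downstream at 12 (5.15%, background 0.182%) and upstream at 4 (1.72%, background 0.0757%), so long stretches were above the background on both sides. The median position of the Pol II end relative to that of H3K27ac was -0.3 kb upstream (inside) and 0.75 kb downstream (outside).

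Besides Pde10a, Phactr1, Adcy5 and Baiap2, the longest downstream stretches past H3K27ac were found at genes of several functions. Pol II ran 19.6 kb at Atp1b1, 17.6 kb at Atp2b1, 16.6 kb at Calm2 and 15.8 kb at Agap2. Cplx2, which encodes the synaptic vesicle fusion regulator complexin 2, had 12 kb past H3K27ac and 11.7 kb past H3K4me3. Scn4b, a sodium channel subunit gene of striatal neurons, had 7.3 and 6.9 kb. The kinase gene Dclk1 had 11.6 kb past H3K27ac, 6530418L21Rik 12.8 kb, Lmo4 10.4 kb and the noncoding Snhg11 9.9 kb. The stretches upstream were shorter, with 11.7 kb at BC003266, 7.8 kb at Bnip3l, a mitophagy receptor gene, and 6.7 kb at Mgea5, the O-GlcNAcase gene. These genes, and Cplx2, Scn4b, Dclk1, 6530418L21Rik, Lmo4 and Snhg11, were chosen for their stretch after its values were seen. On the same strand, the Mgea5 region lies 14.9 kb downstream of the Kcnip2 region. That of BC003266 lies 47.8 kb downstream of the Dlgap3 region. Whether the upstream Pol II of Mgea5 and BC003266 belongs to those neighbours was not tested.

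The share with the larger signed distance downstream changed with rank. Rank follows Pol II width, which also enters the distances, so this change is in part built in. For H3K27ac the share was 86.7% at ranks 1 to 20 (13 of 15 regions), 73.9% at ranks 21 to 50 and 71.1% at ranks 51 to 100. It was 66.7% at ranks 101 to 200 and 63.2% at ranks 201 to 300. Beyond the limit it was 34.5% at ranks 301 to 600, 25.3% at ranks 601 to 1200, 14.0% at ranks 1201 to 2400 and 15.6% in the rest. Score moved with the result. Among members within the 300 highest scores, 66 of 81 (81.5%) had the larger H3K27ac distance downstream. Among lower-scoring members it was 91 of 149 (61.1%), and among 176 high-scoring regions that are not members 37 (21.0%). These classes differ in Pol II width, with medians of 12.3, 11 and 6.1 kb, and the part of width and score in the shares was not tested.

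**Figure D4:**
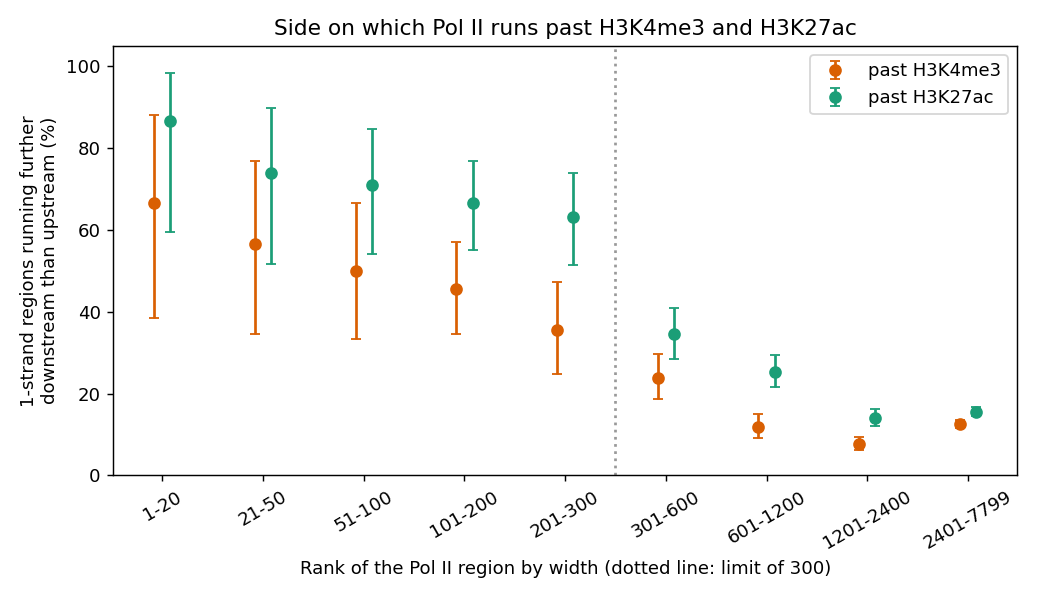
Percent of Pol II regions with genes on 1 strand whose signed distance past H3K4me3 or H3K27ac is larger downstream than upstream. The regions are grouped by rank of Pol II width, with exact 95% intervals over regions, and those enclosed by the mark count too. The share for H3K27ac falls from 86.7% at ranks 1 to 20 to 15.6% in the last class. Pol II width enters both the rank and the distances, so this fall is in part built in.

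Many members held more than 1 gene. Regions with 2 or more genes numbered 106 of 300 (35.3%) against 16.9% of the others, and 62 members (20.7%) held genes of both strands against 14.7%. A wide region reaches more annotated starts, so these shares follow in part from the rule. Fam83e, Sphk2, Rpl18, Car11 and Dbp, a clock output gene, shared a 22.9 kb region. In the 193 members with 1 gene on 1 strand the median Pol II width was 11 kb and the median ratios were 0.898 to H3K4me3 and 1.14 to H3K27ac. In the 62 members with genes on both strands the ratios were 0.812 and 1.27. Pol II width chose the members, so ratios to H3K27ac above 1 follow in part from the rule. With the 600 widest regions the median ratio to H3K27ac was 0.976. Some members are neighbours and not independent of each other, with 21 pairs within 50 kb, such as Fbxl16 and Stub1 on chromosome 17 (2.2 kb apart), Brms1 and Cnih2, with Npas4 nearby, on chromosome 19, and the Eno2 cluster on chromosome 6.

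Genes of medium spiny neurons were the group most often found in the members. Of the 31 shared medium spiny neuron genes with Pol II, 23 were at member regions (74.2%), against 4.85% of all 9163 genes with Pol II. The lists were chosen with results of these data known, so their counts are a description. Besides Pde10a, Phactr1, Adcy5, Bcl11b, Pde1b and Meis2, they included Scn4b (22.5 kb), Arpp21 (17.2 kb), the small GTPase gene Rasd2 (17 kb) and Ppp1r1b, the gene of the dopamine effector Darpp-32 (16.1 kb). The olfactory and striatal G protein subunit Gnal had 15.7 kb, the GABA-synthesising enzyme gene Gad1 14.8 kb, the regulator of G protein signalling Rgs9 14.3 kb, the vesicular GABA transporter gene Slc32a1 10.5 kb and the cannabinoid receptor gene Cnr1 9.7 kb. The median H3K4me3 width of the 23 was 22.3 kb, and that of the listed genes outside the members 12.8 kb.

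Direct-pathway genes were members at 4 of 6 with Pol II, namely the muscarinic receptor gene Chrm4 (18.7 kb), the dopamine receptor gene Drd1a (16.3 kb), the tachykinin gene Tac1 (12.5 kb) and the LIM-homeobox gene Isl1 (10.5 kb). Of the indirect-pathway genes 3 of 8 were, Sp9 (14.1 kb), Gpr52 (13.3 kb) and the enkephalin gene Penk (11.3 kb). Over all genes with Pol II the share was 4.85%. The dopamine receptor gene Drd2 had 7.1 kb and the adenosine receptor gene Adora2a 5.1 kb, although Adora2a carried 22.5 kb of H3K4me3 and 21.3 kb of H3K27ac. Both pathways lie in the same pooled nuclei, so fewer nuclei of a type and less Pol II per nucleus cannot be told apart. Also outside were Gad2 (9.0 kb), the retinoic acid receptor gene Rarb (8.1 kb), Gpr6 (7.4 kb) and Camk2b (7.1 kb).

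**Figure D5:**
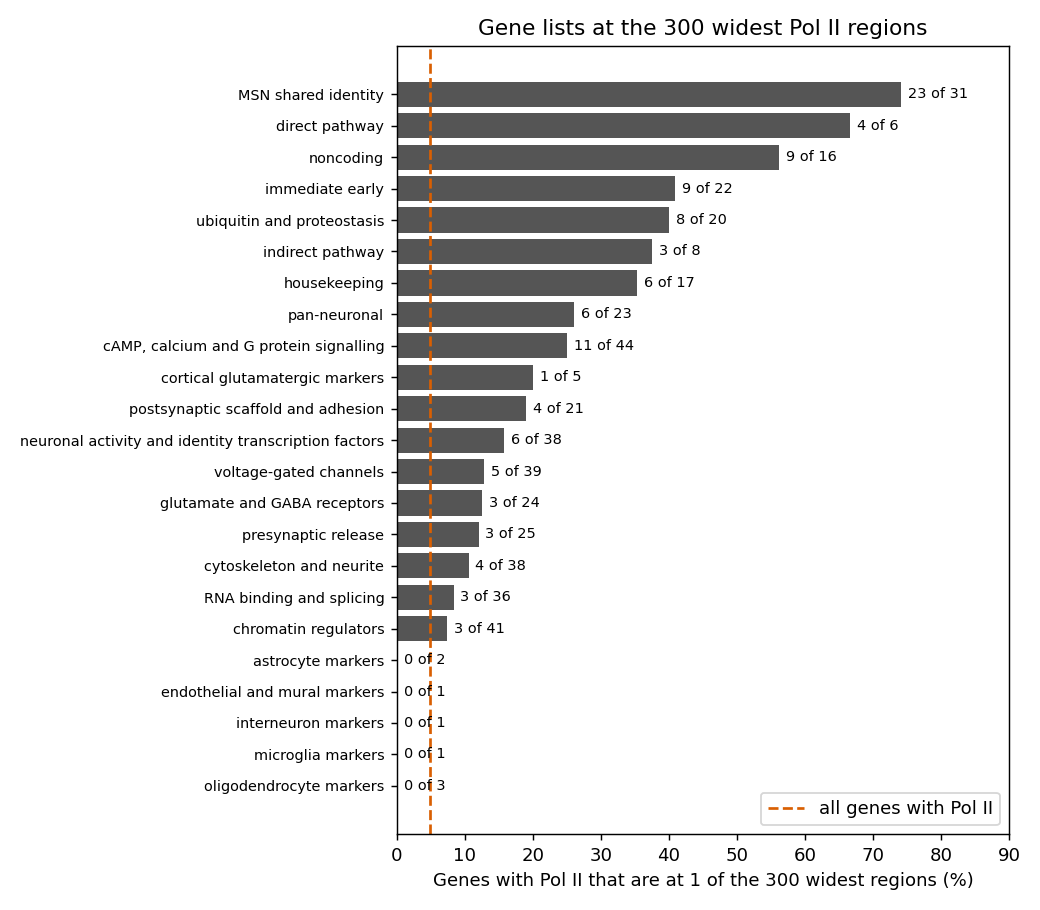
Percent of each gene list's genes with Pol II that lie at 1 of the 300 widest regions, with counts beside the bars and a dashed line at the 4.85% of all genes with Pol II. Shared medium spiny neuron genes (23 of 31) lead, and the lists of glia, vessels and interneurons have none.

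Of the immediate early genes, which respond to neuronal activity, 9 of 22 with Pol II were members (40.9%). The share over all genes with Pol II was 4.85%. The median Pol II width of the 22 was 7.85 kb, below the limit. Junb (7.9 kb), Egr4 (7 kb) and Fos (5.6 kb) had Pol II regions outside the members. The Pol II regions of the 9 members ranged from 17.1 kb at the clock gene Per1, which shares its region with Vamp2, to 9.0 kb at Arc. Their scores ranged from 2.19 at Egr2 and 3.92 at Egr3 to 7.07 at Arc, 7.25 at Egr1 and 7.27 at Jund, with 6.90 at Homer1. At the nuclear receptor gene Nr4a1 13.2 kb of Pol II exceeded 8.9 kb of H3K4me3 and 6.7 kb of H3K27ac. Npas4, a neuronal activity factor, had 11.3 kb of Pol II under 21.2 kb of H3K4me3, and Egr3 had 10.3, 11.5 and 10.1 kb.

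Genes of general cell function were also present. Of the ubiquitin and proteostasis genes 8 of 20 were members (40%, against 4.85% of all genes with Pol II). Among them were the chaperone genes Dnajb5 (15.4 kb), Hsp90ab1 (14.9 kb) and Hspa8 (11.8 kb), and the ubiquitin ligase genes Trim9 (10.7 kb) and Nedd4l (9.8 kb). Housekeeping genes were members at 6 of 17 (35.3%, same background). Among them were the elongation factor gene Eef1a1 (9.7 kb), Gapdh (9.4 kb), Rps18 (9.1 kb), Ppia and Ywhaz (9.0 kb each). The housekeeping members' marks were narrower than those of the striatal genes, with medians of 11.5 kb for H3K4me3 and 8.2 kb for H3K27ac against 22.3 and 16.9 kb in the shared medium spiny neuron list. Wide Pol II therefore occurred both with wide and with moderately wide marks.

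Genes of neuronal signalling and synapses were represented in each list. The counts below stand against 4.85% of all genes with Pol II. Of the cyclic AMP, calcium and G protein signalling genes 11 of 44 were members (25%), among them Ppp1r1a, Atp2b1, Calm2, the calcium sensor gene Hpca (15.8 kb) and the G protein subunit gene Gnb5 (13.4 kb). Pan-neuronal genes were members at 6 of 23, with the enolase gene Eno2 (17.6 kb), Snhg11 (16.1 kb), the AMPA receptor gene Gria2 (11.9 kb), the kinase gene Camk2a (10.2 kb), Meg3 (9.8 kb) and the RNA-binding protein gene Elavl3 (9.3 kb). Postsynaptic genes were members at 4 of 21 (Baiap2, Dlgap3, Lrrtm3 and Lrrc4), presynaptic genes at 3 of 25 (Cplx2, Vamp2 and Rab3a) and glutamate and GABA receptor genes at 3 of 24 (Grik5, Grik2 and Gabbr1). Of the genes listed as voltage-gated channels 5 of 39 were members, among them Cacnb1 (16.6 kb), Kcna4 (12.5 kb) and Cacna2d3. That list also holds Kcnj4, an inward-rectifier potassium channel gene, which was a member too. At Grik5 and Kcnj4 H3K4me3 covered 45.3 and 41.3 kb around 12.1 and 10 kb of Pol II.

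Of the neuronal transcription factor genes 6 of 38 were members (15.8%), among them Klf9 (17 kb), Bcl11a (16.9 kb), Myt1l (16.2 kb), Pou3f3 (11.7 kb) and the glucocorticoid receptor gene Nr3c1 (9.1 kb). Cytoskeletal genes counted 4 of 38 (Ngef, Dclk1 at 20.8 kb, Sept5 and the tubulin gene Tuba1a), RNA-binding genes 3 of 36 (Celf3 at 20.4 kb, Ddx5 and Cpeb2) and chromatin regulators 3 of 41 (7.32%). The last included the Polycomb gene Cbx6 (16.8 kb) and the BAF subunit gene Arid1a (9.5 kb), a share close to the background of 4.85%. The lists as a whole reached only part of the members, and 193 of the 300 held no listed gene.

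Markers of other cells were nearly absent. Pol II was listed at 3 of 16 oligodendrocyte, 2 of 13 astrocyte, 1 of 16 microglial, 1 of 14 endothelial and mural and 1 of 15 interneuron markers, and none of these was a member. Of 13 cortical glutamatergic markers 5 had Pol II, and Tbr1, a cortical transcription factor gene, was a member with 12.9 kb and a score of 2.09, the lowest in the members. A count of 0 in so few genes with Pol II limits the share only loosely.

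A few members had no active mark at the same place. No H3K4me3 or H3K27ac region overlapped Pol II at the second Phactr1 region (33.2 kb), Afap1 (22.5 kb), Hipk4, a kinase gene (17 kb), Ankk1, the gene next to Drd2 (13.6 kb), and the olfactory receptor gene Olfr90 (12.3 kb). Tbr1, Sim1 and Ech1 had H3K4me3 without H3K27ac. Several lay close to an active gene. The nearest H3K4me3 region lay 0.6 kb downstream of Afap1, 11.9 kb downstream of Olfr90, at Gabbr1, and 14.2 kb downstream of Hipk4, at Pld3. For the second Phactr1 region it was 19.2 kb downstream, at Tbc1d7, and for Ankk1 58.9 kb upstream, at Ttc12. The nearest H3K27ac and Pol II regions to Ankk1 were at Drd2, 63 and 64 kb downstream. Gabbr1 lies on the other strand, so the Olfr90 region is also on its downstream side. The members without an active mark lie in the authors' list because they reach the window around an annotated start. Whether that start is used in these neurons was not tested.

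Polycomb chromatin was no more frequent at the members, but a group of 10 lay entirely within it. H3K27me3 shared bases with 25 members (8.33%, 5.47 to 12.1%), against 11.9% of all Pol II regions. Wholly inside H3K27me3 were 10 members (3.33%, background 1.8%): Zfp503, Drd1a, Six3, Sp9, Ankk1, Tbr1, Sim1, Penk, Isl1 and Sox1. The H3K27me3 regions were 103.4 kb wide at Zfp503, 102.0 kb at Ankk1, 53.4 kb at Six3, 50.2 kb at Isl1 and 48.6 kb at the neural progenitor factor gene Sox1. They were 38.7 kb at Drd1a, 32.5 kb at Sim1 and 24.2 kb at Sp9, down to 17.9 kb at Tbr1. Of the 10, 9 overlapped H3K4me3 and 7 H3K27ac, where 98.3% and 97.3% of all members did. A gene of the medium spiny neuron lists was held by 6 of the 10 (Zfp503, Drd1a, Six3, Sp9, Penk and Isl1), against 10% of all members. Those lists were chosen with results of these data known, so this count is a description.

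At Drd1a 16.3 kb of Pol II on chromosome 13 (mm9, 54136801 to 54153100) lay under H3K27me3 that began 12.9 kb upstream and ended 9.5 kb further downstream, and Pol II ran 5.2 kb past H3K27ac. At Penk the H3K27me3 region began 0.7 kb upstream of Pol II and ended 7.4 kb further downstream. Tac1 was covered by H3K27me3 over 52.8% of its Pol II region. At Sept5 and Eif4a2, an initiation factor gene, wide H3K27me3 regions of 85.3 and 59.1 kb touched the Pol II region at its edge, over 6.20% and 13.6% of it. The median Pol II score was 3.68 in the 25 members with H3K27me3 and 4.30 in the members without. The nuclei were pooled, so Pol II and H3K27me3 on the same chromosome copy and on copies in different neurons cannot be told apart.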

How the data were processed

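Chromatin immunoprecipitation with sequencing was analysed from the authors' region lists, 1 per antibody over input. The tools named in the submitters' processing notes are MACS 1.4 and Bowtie 0.12.7, and the build is mm9. The deposited lists give each region's positions, transcript, gene symbol and score over input. The authors' score has no stated scale, no listed score was below 2, and it served to rank or filter regions within 1 list. The deposited lists give no read depth, and no region in them was narrower than 2.5 kb. Bounds lie on a grid of 100 bp, which limits every width and distance. Regions are listed where they reach a window of 3 kb around an annotated start, per the names of the deposited lists, so Pol II regions away from annotated starts were not analysed here.

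Width is end minus start. A gene's mark width is that of its widest region, overlap was by position with 1 bp or more shared, and direction came from the deposited strand. Of all lines, 97.8% were matched to the GRCm38.p6 gene table by transcript, others by symbol, and 0.341% were not matched. Medians carry 95% order-statistic intervals and shares exact Clopper-Pearson intervals, and no p-value was computed. The functions were tested on simulated data. The members and the 23 lists (608 symbols) were chosen with earlier results of these data known. Named genes are those of the 20 widest regions, the 5 highest scores, the 5 largest and smallest ratios to H3K4me3, members without a mark, the 10 widest H3K27me3 regions, up to 6 members per list, and 3 regions on each side of the limit. Some genes that this rule names are not reported here, and others were chosen after their values were seen. The tools were matplotlib 3.10.9, scipy 1.17.1, pandas 2.3.3 and numpy 2.4.6 under Python 3.11.15.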

Additional observations from a re-analysis of the deposited data

How the results depend on the processing

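No paired analysis was possible because each antibody has 1 library. Of 76 comparisons of 15 results with another setting, 58 moved by less than their interval and 18 by more. The number of regions taken moved most values. With the 150 widest regions, median widths were 17.3 kb for H3K4me3 and 12.2 kb for H3K27ac and the ratios of Pol II to them 0.925 and 1.33. Medium spiny neuron genes were then at 16.0% and immediate early genes at 1.33% of regions, against 10% and 3.0% of 300, and the CpG ratio was 0.708. With the 600 widest, the widths were 13.3 and 9.1 kb, the ratios 0.75 and 0.976, and the median part under H3K27ac 96.7%. Regions with the larger signed distance downstream were then 34.5% for H3K4me3 and 51.3% for H3K27ac, and medium spiny neuron genes were at 6.0%. The ratio of Pol II to H3K27ac width thus lay above 1 with 300 regions and below it with 600. In the upper 50% of each list by score, 89.3% had H3K4me3 and 91.3% had H3K27ac. When 0.5 of the narrower region had to be shared, 5.0% had H3K27me3. Widths by position, protein-coding genes only, every promoter of a gene and, chosen after seeing the data, marks counted by gene listing moved none of the results they bear on. Counts within 1 library say nothing of how far another library would differ.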
